A study of Mus musculus with 12 samples.

Results

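Neutrophils are short-lived white blood cells that arise in the bone marrow and kill microbes with enzymes and antimicrobial proteins stored in granules. Their granules are filled in order as the cell matures: primary granules first, then specific granules, then gelatinase granules. Receptors for chemoattractants and genes of activation come up in the mature cell. A mature neutrophil in tissue has shut down most granule transcripts, so transcripts of specific granule proteins mark the immature cell. Tumors of the mouse mammary carcinoma line 4T1 are known to secrete granulocyte colony stimulating factor (encoded by Csf3), which drives the marrow to release neutrophils.

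The genes described are 35 mouse genes of neutrophil granules and neutrophil activation, of 55401 genes in the expression table. They were chosen by gene symbol and not by their values, though with earlier results of these data known. All 35 were in the table, and 33 of them passed the filter for testing. The other 2, Fcnb and Itgb2l, were below 1 TPM (the deposited level, already per transcript length, rescaled so that all libraries share 1 total) in 11 of the 12 libraries. RNA of 12 orthotopic 4T1 tumors from Balb/c mice was sequenced in bulk. Every mouse carried the same tumor line, and 3 tumors each came from mice given a control IgG, IL-10-Fc (interleukin-10 fused to an antibody Fc part), aCSF1R (an antibody against the receptor for colony stimulating factor 1, on which macrophages depend) or BF10 (the antibody fused to interleukin-10). Dosing began at a tumor volume of 100 mm3, with 6 doses per the sample labels but 4 per the series description. A tumor is named here by its group and the number in its title, as in BF10 3.

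The deposited values point to 32100000 to 37500000 reads per library, an estimate from their smallest steps, so depth differed little (0.916 to 1.07 of the median). By total, 2 sets of libraries could be told apart, each with tumors of every group: the deposited values summed to 782919 to 921581 in 5 libraries (control 4, control 7, IL-10-Fc 7, aCSF1R 8 and BF10 6) and to 609695 to 648413 in the other 7. The defining markers of neutrophils were detected in every tumor. Csf3r, the receptor for granulocyte colony stimulating factor, ranged from 2.56 to 110 TPM, Cxcr2, a chemokine receptor, from 0.366 to 38.09 TPM, and Ly6g, the surface marker of mouse neutrophils, from 0.459 to 74.8 TPM. Macrophage markers checked the aCSF1R labels: 6 of 10 fell in aCSF1R tumors against control and none rose, and their summed level was 131 to 937 TPM there against 2272 to 3488 TPM in control tumors. In bulk tumor RNA, fewer cells of a type and less RNA per cell cannot be told apart.

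The tumor BF10 3 stood apart from the other 11 in these genes. What sets it apart was not tested, and neither its identity nor its tissue makeup was checked beyond the marker genes given below. Of the 35 members, 30 had their highest level of all 12 libraries in BF10 3, whereas 19.8% of the 15504 genes tested were highest there. In 13 members the level in BF10 3 was at least 5 times that of the next highest library. Over the whole table only 22 tested genes (0.142%) reached that mark, and 11 of the 22 were members. The 35 genes together made up 2.3% of the summed expression in BF10 3 and 0.257% to 0.647% in each other library. BF10 6 and BF10 7, the other tumors given BF10, stood at 0.387% and 0.282%, within the span of the control tumors (0.257% to 0.404%). The members' medians in each comparison with BF10 are therefore given with and without BF10 3.

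**Figure D1:**
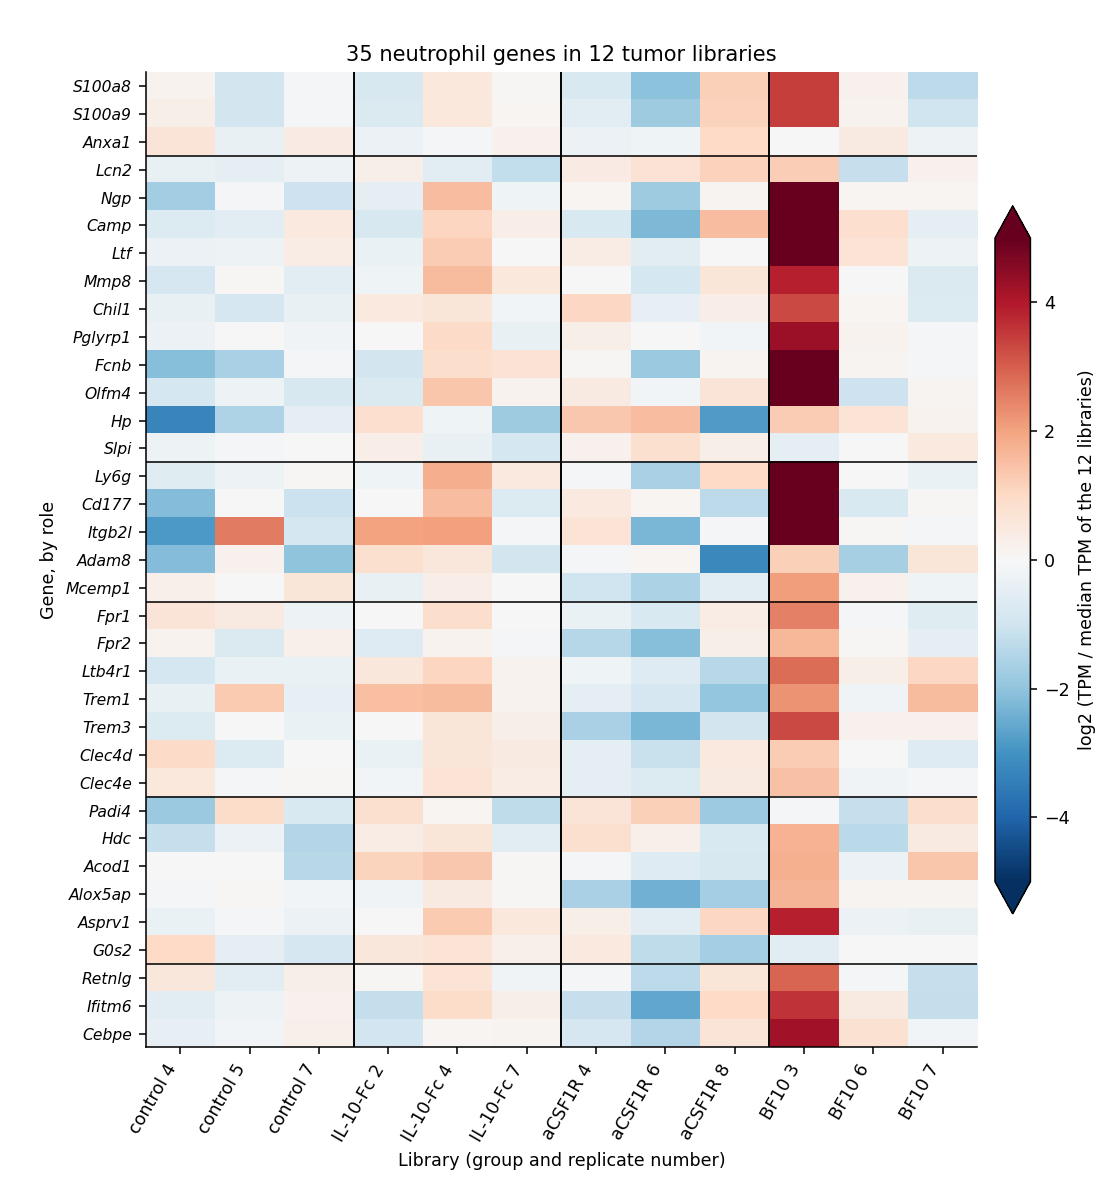
Each row is 1 of the 35 genes, grouped by role with black lines between roles, and each column is 1 tumor library; color gives log2 of the TPM over the median TPM of the 12 libraries, and values beyond 5 take the end color. The column of BF10 3 is dark red for most granule genes, while BF10 6 and BF10 7 look like the other groups.

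The alarmins S100a8 and S100a9, which pair into calprotectin, the most abundant protein of the neutrophil cytosol, were the members with the highest level in BF10 3. S100a8 stood at 671, 317 and 573 TPM in control tumors 4, 5 and 7, at 339, 845 and 611 TPM in IL-10-Fc tumors 2, 4 and 7, at 350, 143 and 1363 TPM in aCSF1R tumors 4, 6 and 8, and at 6522, 681 and 241 TPM in BF10 tumors 3, 6 and 7. The control, IL-10-Fc and aCSF1R groups overlapped fully, and the BF10 group held both the highest tumor and the second lowest. S100a9 followed the same order at its ends, from 248 TPM in aCSF1R 6 through 1906 TPM in aCSF1R 8 to 9368 TPM in BF10 3. The pair made up 69.2% of the members' summed level in BF10 3 and 14% to 50.5% in the other tumors. Anxa1 behaved otherwise: this annexin, an anti-inflammatory protein that many cell types express, was 764 to 1946 TPM with BF10 3 in the middle at 1006 TPM.

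The granule proteins held the widest gaps. Ngp (neutrophilic granule protein) stood at 7.08, 22.3 and 11.5 TPM in control, at 17.5, 69.0 and 20.4 TPM in IL-10-Fc, at 25.3, 7.00 and 25.9 TPM in aCSF1R and at 1573, 25.2 and 25.2 TPM in BF10 tumors, each in the order of tumor numbers given above. All 3 BF10 tumors were above all 3 control tumors, but only BF10 3 was above IL-10-Fc 4. Camp, which encodes cathelicidin, a peptide that breaks microbial membranes, reached 531 TPM in BF10 3 and 1.72 to 23.8 TPM elsewhere. Ltf, which encodes the iron-binding lactoferrin, reached 670 TPM there and 9.17 to 33 TPM elsewhere. These 3 specific granule genes were thus 20.3 to 22.8 times their next highest library in BF10 3. They lie near each other on chromosome 9, with gaps of 570 kb between Camp and Ngp and 596 kb between Ngp and Ltf.

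Fcnb, which encodes ficolin-B, a lectin of the immature neutrophil, showed the widest gap of the 35. It was 37.4 TPM in BF10 3 and at most 0.540 TPM in any other tumor, a ratio of 69.4. Pglyrp1, a peptidoglycan-binding granule protein, was 176 TPM in BF10 3 and 7.01 to 17.3 TPM elsewhere. Olfm4, which marks a subset of neutrophils, was 22.2 TPM against 0.338 to 1.84 TPM. For the collagenase Mmp8 (78.7 TPM in BF10 3, 16.2 TPM in IL-10-Fc 4) and the chitinase-like Chil1 (56.8 TPM, 11.7 TPM in aCSF1R 4) BF10 3 was 4.87 and 4.84 times the next tumor. In 9 of the 11 granule and secreted proteins BF10 3 was the highest tumor, the exceptions being Hp and Slpi.

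The sequence before the start of the 4 granule genes with the highest ratios in BF10 3 is shown because the same factor, C/EBP epsilon, is known to be needed for specific granules, and its own gene Cebpe is a member. Sequences are from RefSeq promoters on GRCm38.p6, which matched 31 of the 35 members, and are cut where a GENCODE gene begins. Capitals mark TTNNGNAA on either strand, a loose form of the C/EBP binding sequence. Fcnb lies on the minus strand (chr2:28084886-28085128), Ngp on the plus strand (chr9:110419558-110419746), Ltf on the plus strand (chr9:111019042-111019270) and Camp on the minus strand (chr9:109849618-109849706).
Fcnb: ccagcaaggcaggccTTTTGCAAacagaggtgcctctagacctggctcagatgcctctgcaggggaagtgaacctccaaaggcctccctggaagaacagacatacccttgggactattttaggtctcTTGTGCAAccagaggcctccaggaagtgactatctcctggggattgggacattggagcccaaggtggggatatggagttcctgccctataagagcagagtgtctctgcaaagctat
Ngp: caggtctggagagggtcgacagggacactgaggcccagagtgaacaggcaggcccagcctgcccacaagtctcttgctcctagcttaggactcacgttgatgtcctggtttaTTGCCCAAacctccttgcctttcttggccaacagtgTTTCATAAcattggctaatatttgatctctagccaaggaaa
Ltf: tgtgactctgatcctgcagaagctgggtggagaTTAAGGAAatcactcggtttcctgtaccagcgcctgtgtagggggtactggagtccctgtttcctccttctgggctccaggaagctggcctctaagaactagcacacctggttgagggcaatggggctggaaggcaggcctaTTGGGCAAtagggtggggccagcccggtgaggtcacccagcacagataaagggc
Camp: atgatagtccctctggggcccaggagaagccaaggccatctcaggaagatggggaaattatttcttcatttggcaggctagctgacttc
Fcnb, Ngp and Ltf each hold 2 matches in the stretch shown, and Camp holds none. In the 250 bases before the RefSeq start, TTNNGNAA was found in 22 of 31 members (71.0%) and in 36.9% of 27025 promoters, the stricter TTGCGNAA in 0 of 31 members and 0.67% of promoters, and GAGGAA, the core that PU.1 binds, in 16 of 31 members (51.6%) and in 23.1% of promoters; the motifs were counted separately and may overlap, and the strict form is contained in the loose one. A match describes letters and not a bound site, and these shares were not tested.

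Surface proteins of the neutrophil showed the same tumor on top. Ly6g was 0.942, 1.21 and 1.5 TPM in control, 1.21, 5.04 and 2.02 TPM in IL-10-Fc, 1.38, 0.459 and 2.86 TPM in aCSF1R and 74.8, 1.46 and 1.13 TPM in BF10 tumors. BF10 6 and BF10 7 lay within the range of the control tumors. Ly6g belongs to a family of similar genes, so part of its level may be reads of a relative. Cd177, a surface glycoprotein that pairs with proteinase 3, was 99.6 TPM in BF10 3 and 0.561 to 7.403 TPM elsewhere, and the integrin subunit Itgb2l was 6.16 TPM against at most 0.492 TPM. Adam8, a metalloprotease that other leukocytes and tumor cells also make, was 114 TPM in BF10 3 but 87.3 TPM in IL-10-Fc 2. Cebpe stood at 17.3 TPM in BF10 3 against 0.344 to 1.60 TPM in the other tumors.

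The gap was widest in the members listed as made early in maturation. The 15 members made early in maturation (Padi4, Lcn2, Chil1, Mmp8, Trem3, Pglyrp1, Cebpe, Olfm4, Itgb2l, Cd177, Ly6g, Ltf, Camp, Ngp and Fcnb) had a median ratio of BF10 3 to the next highest library of 12.1, and 11 of the 15 were at least 5 times that library. The 13 made late or on activation had a median ratio of 1.89, and none reached 5 times. Among the late genes S100a9 had the highest ratio at 4.92. The 7 members in neither list had a median ratio of 2.82, and 2 of the 7 reached 5 times. The stage lists were chosen with earlier results of these data known. Because 1 tumor sets every ratio, the difference between the stages is a description with no test. Other cell types also make some members, such as Slpi, Trem1 and Alox5ap of the late list and Lcn2 of the early list. The part of those cells in the ratios was not tested.

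**Figure D2:**
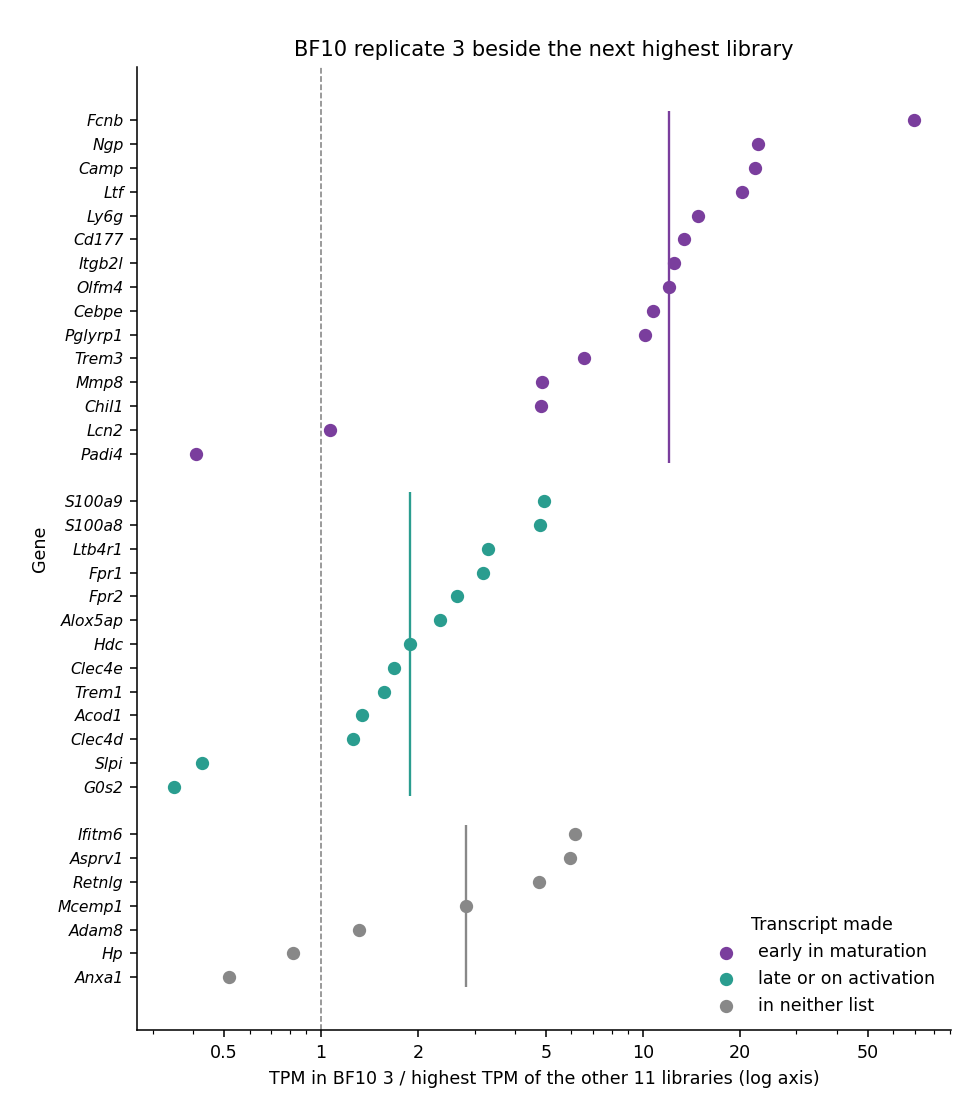
Each point is 1 member, in 3 blocks by when the transcript is made, placed by its TPM in BF10 3 over its highest TPM in the other 11 libraries (log axis); vertical lines are block medians and the dashed line is equality. The early block centers on 12.1 and the late block on 1.89, and 5 members lie below 1.

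Most neutrophil genes read outside the 35 were also highest in BF10 3. The 7 primary granule genes, which come on before the specific granules, summed to 506 TPM there and to 8.86 to 35.2 TPM elsewhere. Mpo (myeloperoxidase) was 136 TPM against at most 8.07 TPM, and Elane (neutrophil elastase) was 92.5 TPM against at most 3.96 TPM. Of 19 further neutrophil genes in the table, 16 were highest in BF10 3. Csf3r stood at 110 TPM there, 4.83 times its next highest library. Cxcr2 stood at 38.09 TPM, 6.07 times its next highest library, a ratio that no late member reached. Il1b, a cytokine that neutrophils and macrophages share, was not among the 16, at 73.4 TPM in BF10 3 and 260 TPM in control 4.

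Markers of other cells were also read in BF10 3, and their part in the result was not tested. The summed level of 10 macrophage markers was 1.10 times and that of 7 monocyte markers 1.59 times the next highest library. The summed level of 6 erythroid markers ranked 11 of 12 in BF10 3 at 248.9 TPM. The 6 eosinophil markers summed to 16.1 TPM, 3.59 times the next tumor, and 5 of the 6 were highest in BF10 3. Epx, the defining peroxidase, stood at 0.673 TPM, and Prg2, also an eosinophil gene, at 10.6 TPM, 3.77 times its next library. Of 12 genes of neutrophil recruitment, Cxcl2 (46.3 TPM), Cxcl3 (17.9 TPM), Pf4 (258 TPM) and Tnf (4.60 TPM) were highest in BF10 3, at 1.07 to 1.79 times the next tumor. Csf3 (19.0 TPM against 53.9 to 320 TPM elsewhere), the chemokine Cxcl1 (17.1 TPM against 19.99 to 237 TPM), Csf2 and Il23a were lowest there. The sum of the 12 ranked 5 of 12 in BF10 3.

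All 7 receptors were highest in BF10 3, at 1.25 to 6.54 times the next tumor. Ltb4r1, the receptor for leukotriene B4, stood at 1.95, 2.83 and 2.85 TPM in control, at 5.32, 7.50 and 4.02 TPM in IL-10-Fc, at 3.09, 2.28 and 1.37 TPM in aCSF1R and at 24.8, 4.32 and 7.28 TPM in BF10 tumors. Every IL-10-Fc and BF10 tumor was above every control and every aCSF1R tumor for this gene. Trem3, an activating receptor whose gene lies 0.853 kb from Trem1, was 1.64, 2.67 and 2.10 TPM in control, 2.61, 3.96 and 3.26 TPM in IL-10-Fc, 0.862, 0.541 and 1.38 TPM in aCSF1R and 25.9, 3.04 and 3.09 TPM in BF10 tumors. The aCSF1R tumors were the 3 lowest. Trem1, which amplifies inflammatory signals, was 0.825 to 2.23 TPM in aCSF1R, below every tumor of the other groups (2.33 to 14.7 TPM).

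The formyl peptide receptors and the lectin receptors did not separate the groups. Fpr1 was 1.69 to 5.17 TPM outside BF10 3 and 16.5 TPM in it, and Fpr2 was 5.49 to 29.3 TPM and 77.1 TPM. The fungal and damage sensors Clec4d and Clec4e, which sit 6.52 kb apart, were 13.3 to 56.4 TPM and 5.90 to 15.4 TPM in the other tumors and 70.7 TPM and 25.9 TPM in BF10 3. For these 4 genes aCSF1R 6 was the lowest tumor. Across all 35 members aCSF1R 6 was the lowest library for 18, while aCSF1R 8 was the highest after BF10 3 for S100a8, S100a9, Lcn2, Camp, Fpr2 and Ifitm6.

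Among the enzymes, Alox5ap, the protein that presents arachidonic acid to 5-lipoxygenase in leukotriene synthesis, separated the groups most clearly. It stood at 85.3, 95.1 and 81.5 TPM in control, at 80.6, 123 and 94.9 TPM in IL-10-Fc, at 29.1, 16.9 and 27.5 TPM in aCSF1R and at 289, 97.9 and 97.8 TPM in BF10 tumors. The highest aCSF1R tumor (29.1 TPM) was well below the lowest tumor of any other group (80.6 TPM). Acod1, which makes itaconate in activated myeloid cells, was 4.61, 4.41 and 1.71 TPM in control and 9.67, 11.5 and 4.71 TPM in IL-10-Fc tumors, without overlap. In aCSF1R tumors it was 2.56 to 4.31 TPM, and in BF10 tumors 15.7, 3.67 and 11.7 TPM. Hdc, which makes histamine, was 2.14 to 10.4 TPM outside BF10 3 and 19.7 TPM in it, and Asprv1, a protease, was 3.05 to 10.9 TPM and 64.4 TPM.

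Mcemp1 was low in aCSF1R tumors, and Retnlg and Ifitm6 were high in BF10 3. Mcemp1, a membrane protein of myeloid cells, was 8.10 to 12.4 TPM in control, 6.47 to 10.4 TPM in IL-10-Fc, 2.76 to 5.74 TPM in aCSF1R and 35, 9.52 and 7.204 TPM in BF10 tumors. The resistin-like Retnlg was 16.3 to 64.7 TPM outside BF10 3 and 307 TPM in it. Ifitm6, an interferon-induced membrane protein of myeloid cells, was 5.72 to 69.7 TPM and 430 TPM. G0s2, an inhibitor of triglyceride breakdown, was lower in BF10 3 (6.26 TPM) than in the highest tumor, control 4 (17.9 TPM).

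**Figure D3:**
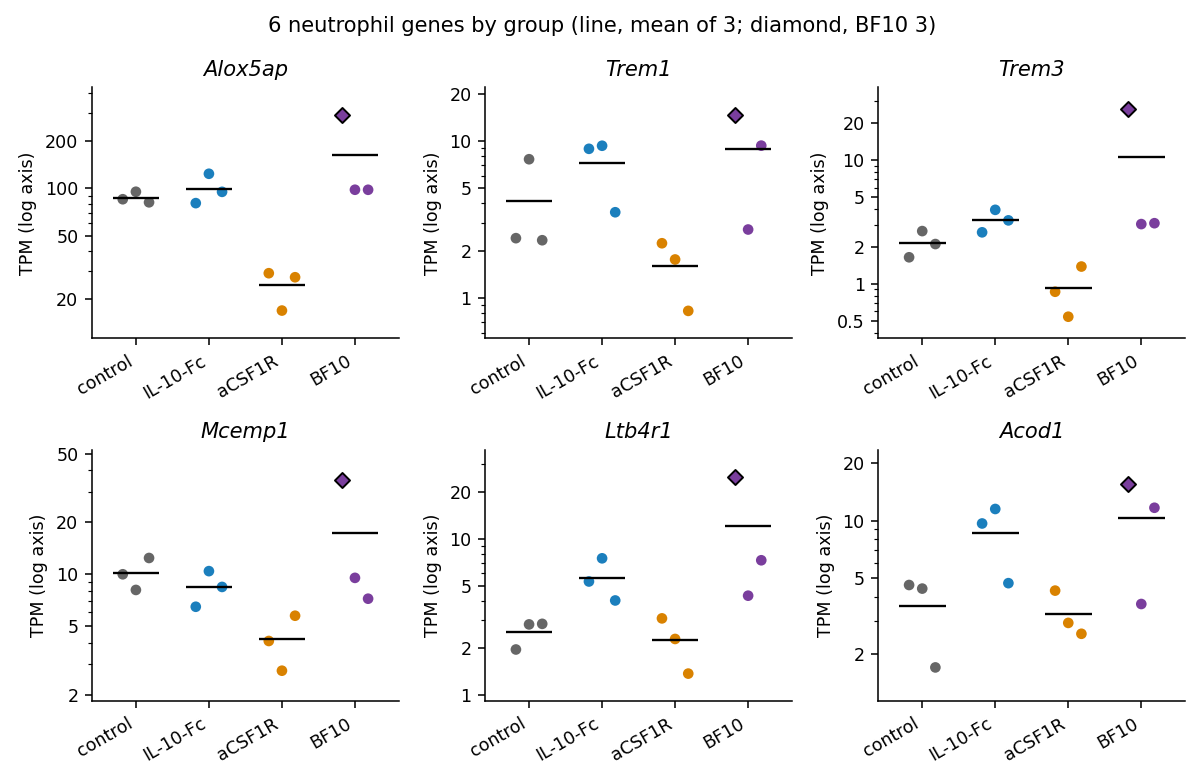
Each panel is 1 gene, with TPM on a log axis, 1 point per tumor, a line at the mean of the 3 tumors of a group and a diamond for BF10 3. Alox5ap, Trem1, Trem3 and Mcemp1 are lowest in the 3 aCSF1R tumors, and Ltb4r1 is higher in every IL-10-Fc and BF10 tumor than in any control tumor.

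Some members did not follow the rest. Over the 12 libraries, the correlation of a tested member with the mean of the other members had a median of 0.837, and of 0.514 over the 11 without BF10 3. These are descriptions over tumors that share 2 sets. Without BF10 3, Slpi (-0.52), Lcn2 (-0.33), Padi4 (-0.24) and Hp (-0.20) ran against the rest. Slpi, a protease inhibitor that epithelium also secretes, was 121, 139 and 148 TPM in control and 250.9 TPM at its highest, in aCSF1R 6. Lcn2, the siderophore-binding lipocalin of specific granules, which tumor epithelium also makes, was 213 to 246 TPM in control, 124 to 363 TPM in IL-10-Fc, 387 to 650 TPM in aCSF1R and 691, 133 and 342 TPM in BF10 tumors. Its aCSF1R tumors were all above its control and IL-10-Fc tumors.

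Padi4, which citrullinates histones in neutrophil traps, was 42.8, 287 and 90.2 TPM in control tumors and 238, 349 and 43.6 TPM in aCSF1R tumors, so both groups spanned almost the same range. Hp, which encodes the hemoglobin-binding haptoglobin, was 10.4 to 72.7 TPM in control and 115 to 240 TPM in BF10 tumors, without overlap. In aCSF1R tumors Hp ran from 14.1 to 294 TPM. The summed level of 6 adipocyte markers was 626 TPM in aCSF1R 6, where Hp was highest, and 35.1 TPM in aCSF1R 8. Adipose tissue also makes haptoglobin, and the part of fat in its level was not tested.

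**Figure D4:**
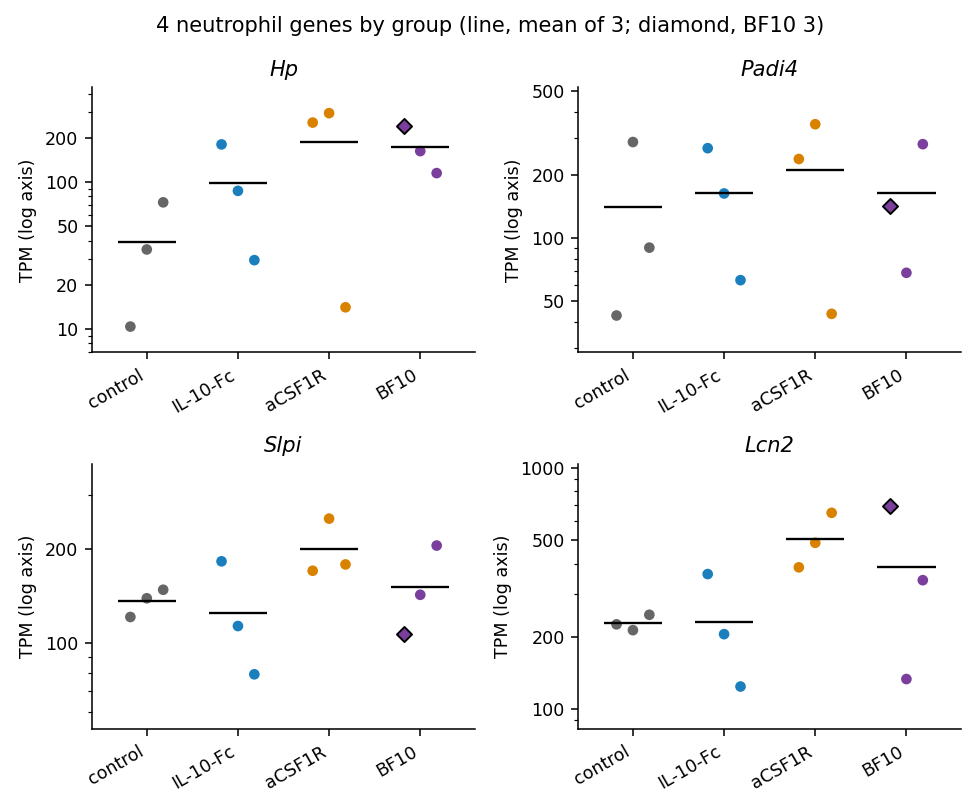
Each panel is 1 gene, with TPM on a log axis, 1 point per tumor, a line at the mean of the 3 tumors of a group and a diamond for BF10 3. BF10 3 is not the highest tumor for Hp, Padi4 or Slpi, and it is only just the highest for Lcn2, 1.06 times aCSF1R 8.

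The genes outside the 35 whose levels were most like the members' mean were Rdh12 (Pearson r 0.975 over 12 libraries, 0.779 over 11 without BF10 3), Mrgpra2b (0.973 and 0.845), Mpo (0.953 and 0.758), Ceacam10 (0.945 and 0.694) and Slfn4 (0.943 and 0.717). All 5 had their highest level in BF10 3. The likeness weakened for each of them when that tumor was left out.

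The comparison of BF10 with control asks what the fusion protein changed in the tumor. Members had higher levels on average in BF10 tumors, but none passed the test, and the difference rested on BF10 3. Of 33 tested members 31 had a positive log2 change, with a median of 1.15 against 0.32 over all genes. Without BF10 3, the median was 0.17 against 0.20 over all genes, and 21 of 33 were positive. No gene of the 15504 (0%) was called, which here means an adjusted p under 0.05 in limma and a difference of 1.5-fold or more. An unadjusted p under 0.05 was found for 234 genes, and 2 of those 234 were members. The smallest unadjusted p belonged to Ltb4r1, with a log2 change of 1.57 (SE 0.51, limma adjusted p = 0.788). Acod1 had a log2 change of 1.19 (SE 0.51) and Ngp of 2.95 (SE 1.35), both at a limma adjusted p = 0.788.

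**Figure D5:**
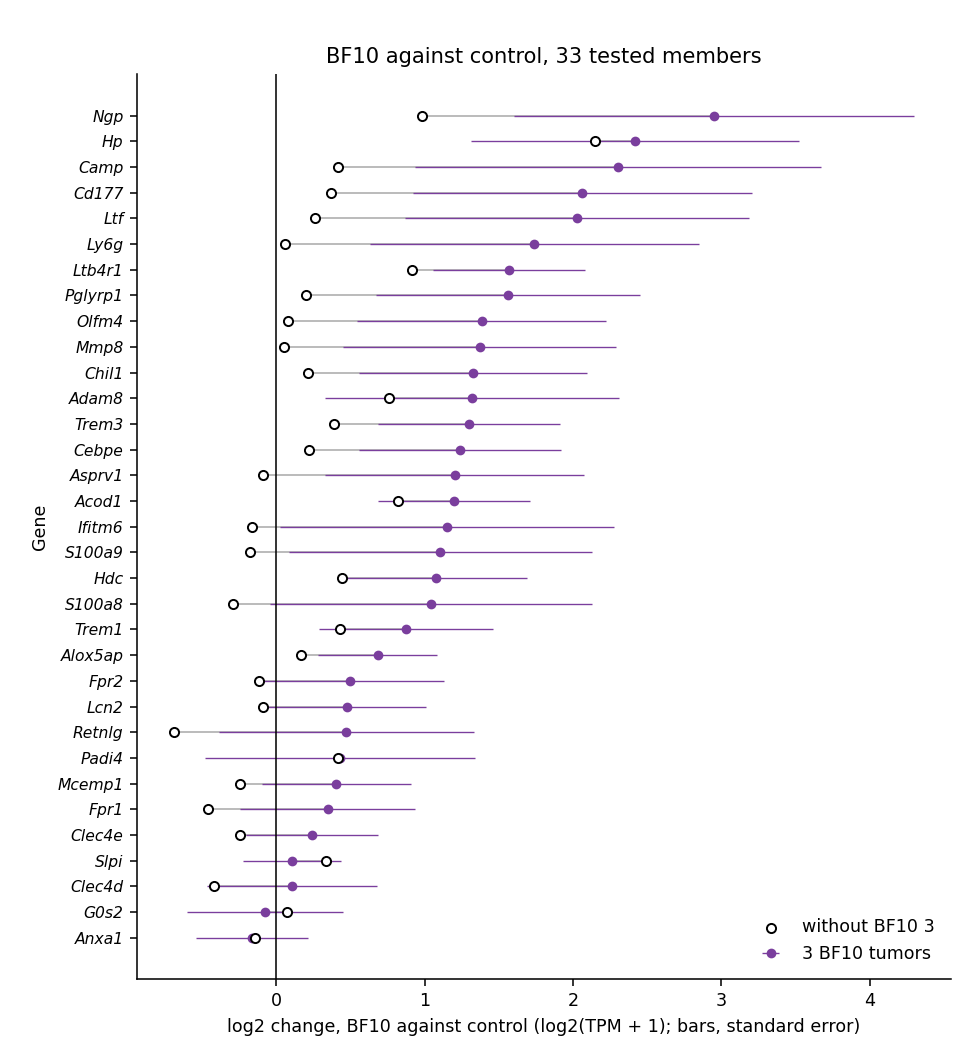
Each row is 1 of the 33 tested members, with the log2 change of BF10 against control on the horizontal axis, filled with all 3 BF10 tumors (bars, standard error) and open without BF10 3. Most granule genes move from above 1 to near 0, Ngp from 2.95 to 0.98, while Hp and Ltb4r1 move least among the genes above 1.5.

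Without BF10 3 the change of Ngp was 0.98, that of Ltb4r1 was 0.92 and that of Acod1 was 0.82. With all BF10 tumors and the library set as a term in the model, these changes were 2.61, 1.33 and 0.90, and none was called. The 3 tumors of each group did not overlap for 5 of the 33 tested members, Ngp, Hp, Ltb4r1, Trem3 and Alox5ap, all higher in BF10, and for the untested Fcnb; 2.36% of all tested genes were so separated in that direction. Within the libraries of higher sums, where 1 BF10 tumor stood beside 2 control tumors, the median log2 difference of the 35 members was 0.15, and within those of lower sums, where BF10 3 lies, it was 1.48.

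IL-10-Fc tumors were compared with control to see the cytokine arm alone. No member passed the test, and the members moved about as far as all genes did. The median was 0.41 with 27 of 33 positive, against 0.35 over all genes, of which 1 (0.00645%) was called. With scaling by the median of ratios the median of the members was -0.0027 with 16 of 33 positive, and without rescaling it was 0.22 with 19 positive, so no direction can be given. The smallest unadjusted p belonged to Acod1, with a log2 change of 1.07 (SE 0.51, limma adjusted p = 0.738). Ltb4r1 had 0.88 (SE 0.51) and Hdc 0.91 (SE 0.62), at the same limma adjusted p = 0.738. With the library set as a term in the model, the changes were smaller and none was called: Acod1 0.78, Ltb4r1 0.64 and Hdc 0.51. The tumors did not overlap for 4 members, Chil1, Ltb4r1, Acod1 and Asprv1, all higher in IL-10-Fc, as were 4.75% of all tested genes. The median over the members fell to 0.03 without IL-10-Fc 4, the tumor with the highest levels of most granule genes after BF10 3.

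In aCSF1R tumors against control, no member passed the test. The median change of the 33 members was -0.08 against 0.24 over all genes, with 14 positive. The count of members called was 0, against 88 genes (0.568%) over the whole table, all lower in aCSF1R. Alox5ap had a log2 change of -1.83 (SE 0.40, limma adjusted p = 0.110), the members' smallest p. Mcemp1 followed with -1.13 (SE 0.50) and Lcn2 with 1.13 (SE 0.54), both at a limma adjusted p = 0.893. The groups did not overlap for Mcemp1, Trem1, Trem3 and Alox5ap, lower in aCSF1R (3.68% of all tested genes), and for Lcn2, Olfm4 and Slpi, higher in aCSF1R (1.61%). Levels of Olfm4 were low here, at 0.640 to 1.11 TPM in aCSF1R and 0.381 to 0.588 TPM in control tumors.

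With the set of the library as a term in the model, 2 members passed the test against control, as did 2.01% of all genes. Alox5ap then had a log2 change of -1.89 (SE 0.38, limma adjusted p = 0.0278) and Trem1 of -1.28 (SE 0.25, limma adjusted p = 0.0199). Alox5ap also passed in the fit without BF10 3, in which its standard error was smaller (0.26, limma adjusted p = 0.0124). Macrophages also express Alox5ap and Trem1, and the macrophage markers fell in the same tumors (131 to 937 TPM summed, against 2272 to 3488 TPM in control). The part of macrophages in these changes was not tested. The part of neutrophils was not tested either. Csf3r was 3.84 to 21.9 TPM in aCSF1R and 2.82 to 14 TPM in control tumors, with overlap. The levels of Cxcr2, Ly6g, S100a8 and S100a9 also overlapped between aCSF1R and control tumors.

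The comparison of BF10 with IL-10-Fc asks what the antibody part added to the cytokine. No member and no gene (0%) passed the test, with 42 genes and none of the members at an unadjusted p below 0.05. The median change of the members was 0.59 with 29 of 33 positive, and -0.32 with 6 of 33 positive without BF10 3, so that tumor set the direction. The smallest unadjusted p values belonged to Cebpe, with a log2 change of 1.29 (SE 0.68), Ltf, with 1.68 (SE 1.16), and Trem3, with 0.85 (SE 0.61), each at a limma adjusted p of 1. Without BF10 3 these became 0.27, -0.09 and -0.06. G0s2 was the only member whose groups did not overlap, lower in BF10 at 6.26 to 8.99 TPM than in IL-10-Fc at 10.6 to 14.4 TPM, as were 1.51% of all tested genes. No member was higher in every BF10 tumor than in every IL-10-Fc tumor (0.619% of all tested genes).

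The comparison of BF10 with aCSF1R set the fusion against the antibody alone, and 1 of 33 members passed the test, against 0.735% of all genes, all 114 of them higher in BF10. The member was Alox5ap, with a log2 change of 2.51 (SE 0.40, limma adjusted p = 0.0145). Without BF10 3 it was 1.99 (limma adjusted p = 0.0241), and within the library sets it was 1.80 (1 tumor against 1) and 2.87 (2 against 2). The call was lost without aCSF1R 6 (limma adjusted p = 0.0815), with scaling by the median of ratios (0.0712), with a replicate block (0.165) and when only these 2 groups were fitted (0.294). Over all members the median change was 1.24 with BF10 3 and 0.03 without it.

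The tumors did not overlap for Mcemp1, Ltb4r1, Trem1, Trem3 and Alox5ap, higher in BF10, as were 4.33% of all genes. With the library set as a term, Ltb4r1 (log2 change 1.72, SE 0.39, limma adjusted p = 0.0405), Trem1 (1.74, SE 0.24, limma adjusted p = 0.00175) and Alox5ap (2.51, SE 0.37, limma adjusted p = 0.00282) were called, as were 2.82% of all genes. Macrophage markers moved along here as well, with 6 of 10 higher in BF10 than in aCSF1R tumors. The macrophage sum was 2475 to 4142 TPM in BF10 tumors.

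IL-10-Fc tumors were last set against aCSF1R tumors, the same 3 tumors as in the comparison above. No member was called, against 84 genes (0.542%), all higher in IL-10-Fc. Alox5ap had a log2 change of 2.00 (SE 0.40, limma adjusted p = 0.0677), Trem1 of 1.61 (SE 0.59, limma adjusted p = 0.912) and Lcn2 of -1.24 (SE 0.54, limma adjusted p of 1). The tumors of 6 members did not overlap in the higher direction (5.9% of all genes), Mcemp1, Ltb4r1, Trem1, Trem3, Acod1 and Alox5ap, and those of Lcn2 did not in the lower (1.6%). With the library set as a term, Trem1 (1.61, SE 0.24, limma adjusted p = 0.00372) and Alox5ap (2.00, SE 0.37, limma adjusted p = 0.0161) were called, as were 2.13% of all genes.

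A further contrast asked whether BF10 differed from the sum of its parts: its change against control less those of IL-10-Fc and aCSF1R. No member was called, against 45 genes (0.29%), and the median of the members was 0.71 with BF10 3 and -0.19 without it. Alox5ap had the smallest p, with 2.34 (SE 0.56, limma adjusted p = 0.290). Mcemp1 had 1.78 (SE 0.71) and Trem3 1.56 (SE 0.87), both at a limma adjusted p = 0.975.

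Other neutrophil genes and genes of neutrophil recruitment were read beside the members. Of the 19 further neutrophil genes in the table, 18 were tested and none was called in any of the 7 contrasts. Of the 7 primary granule genes 5 were tested, and none was called. Of the 12 recruitment genes 11 were tested, and only the chemokine Pf4 was called. It was lower in aCSF1R than in control by a log2 change of -2.66 (limma adjusted p = 0.0105), and higher in BF10 and IL-10-Fc than in aCSF1R. Macrophage markers were called in the same comparisons and directions, and the part of macrophages in the change of Pf4 was not tested. Csf3 was 53.9 to 110 TPM in control and 124 to 320 TPM in aCSF1R tumors, without overlap. Il17a, a cytokine that acts upstream of Csf3, was listed at 0 in all 12 libraries.

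The set of a library moved some members as well. With the groups in the model, 8 of 33 members (24.2%) differed between the sets, as did 59.2% of all tested genes, and the difference between these shares was not tested. Adam8 (-2.32), Padi4 (-2.03), Hp (-1.65), Trem1 (-1.25), Hdc (-1.19), Acod1 (-0.87) and Ltb4r1 (-0.70) were lower and Anxa1 (0.76) was higher in the higher-sum libraries, on the log2 scale. The 16 longer members, above 1547 bases of exon, had a median set difference of -0.68, as had all tested genes, and the 17 shorter ones of -0.18. S100a8 (0.72, SE 0.78, limma adjusted p = 0.419) and S100a9 (0.62, SE 0.73, limma adjusted p = 0.464) did not pass the test. BF10 3 and BF10 7 were both lower-sum libraries, and S100a8 was 27.1 times higher in BF10 3 than in BF10 7, Ngp 62.5 times and Camp 87.7 times.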

How the data were processed

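RNA of 12 tumors was sequenced by the authors from stranded poly(A) libraries, aligned to mm10 with annotation GRCm38.101 (the submitters' processing notes name STAR 2.7.5a, RSEM 1.3.3 and DESeq2 1.28.0). The authors deposited FPKM values for 55401 genes; the program that wrote them is not given in the sources used here. Their 4 tables of DESeq2 comparisons hold fold changes and p-values and were not used. Every column was matched to a sample by name (0 unmatched).

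FPKM values were rescaled to the same total per library (TPM). Genes at 1 TPM or more in at least 3 libraries were tested on log2(TPM + 1), which understates changes of low genes, by a moderated linear model (limma 3.58.1, eBayes with its trend option; R 4.3.3) over all 12 libraries. A gene was called at a Benjamini-Hochberg adjusted p below 0.05 and a change of at least 1.5-fold. The code was tested on simulated data. An exact permutation test of 3 against 3 tumors cannot go below p = 0.1, so none is given. Nothing says whether the samples of a group came from separate mice, so p-values measure the spread between these samples.

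The members, the lists and the alternatives were chosen with earlier results of these data known. Named by rule were the members called in a comparison, or else the 3 with the smallest unadjusted p, and the 5 genes most alike by correlation. Marker lists of maturation stages and cell types describe levels and carry no test of their own.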

Additional observations from a re-analysis of the deposited data

Results flagged for a closer look

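Alox5ap and Trem3 lay on opposite sides of control: every BF10 tumor was above every control tumor and every aCSF1R tumor was below. The change of Alox5ap against control differed between BF10 and aCSF1R by 2.51 on the log2 scale (SE 0.40, limma adjusted p = 0.0145). For Trem3 the difference was 2.01 (SE 0.61, limma adjusted p = 0.421), which did not pass the test. The step above control was small for Alox5ap outside BF10 3: BF10 6 and BF10 7 stood at 97.9 and 97.8 TPM, and the highest control tumor at 95.1 TPM. Against control, BF10 had a log2 change of 0.68 for Alox5ap and of 1.297 for Trem3 (both limma adjusted p = 0.788), and of 0.17 and 0.39 without BF10 3. The call of Alox5ap between BF10 and aCSF1R was lost with the median of ratios, the replicate block, only these groups fitted or aCSF1R 6 left out. Over all tested genes, 2.36% lay above control without overlap in BF10 tumors and 3.68% below it in aCSF1R tumors. The macrophage marker sum was 131 to 937 TPM in aCSF1R tumors and 2475 to 4142 TPM in BF10 tumors, and its part in both genes was not tested.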

How the results depend on the processing

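The alternatives were a pseudocount of 0.1, FPKM without rescaling, scaling by the median of ratios, no filter on low values beyond a value above 0, a term for the library set, a replicate block, limma's sample quality weights, only the groups compared, the adjusted p alone, and leaving out each library in turn. Members called moved under the library set as a term (from 0 to 2 for aCSF1R against control, from 1 to 3 for BF10 against aCSF1R, from 0 to 2 for IL-10-Fc against aCSF1R). Quality weights gave 8, 11, 9, 4, 16 and 8 members for BF10, IL-10-Fc and aCSF1R against control, BF10 and IL-10-Fc against aCSF1R and the non-additive contrast. That fit weighted IL-10-Fc 4 by 61.7 and aCSF1R 8 by 0.0736. It called 9274 of the 15504 tested genes for IL-10-Fc against control. The shares over all genes are not given for the other contrasts, so these counts are not read as a result about the members. The call of Alox5ap for BF10 against aCSF1R was lost (0 members) with the median of ratios, with the replicate block and with only the groups compared; the cause was not tested, though the last leaves fewer samples. Leaving out 1 library gave 0 to 1 members for aCSF1R against control, BF10 against aCSF1R and IL-10-Fc against aCSF1R. The count was 1 in the first and the last without BF10 3, and 0 in the second without aCSF1R 6. The shares over all genes in these fits are not given, so these counts are likewise not read as a result about the members.

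The median change of the members for IL-10-Fc against control (0.41) was -0.0027 with the median of ratios and 0.99 with quality weights, and 0.028 to 0.57 with 1 library left out, lowest without IL-10-Fc 4; that for IL-10-Fc against aCSF1R (0.45) was 1.10 with quality weights, 0.83 with the replicate block and 0.26 with the median of ratios, and with 1 library left out 0.15 (without IL-10-Fc 4) to 0.78 (without aCSF1R 8). For BF10 against IL-10-Fc (0.59) it turned to -0.13 with the block, -0.11 with quality weights and -0.32 without BF10 3. For the non-additive contrast (0.71) it ran from -0.19 without BF10 3 to 1.33 without BF10 6. Ltf in BF10 against IL-10-Fc (1.68) reversed to -0.24 with the replicate block, -0.14 with quality weights, and with 1 library left out ran from -0.089 without BF10 3 to 2.78 without BF10 7. Trem3 (0.85) reversed to -0.093 with the block, and with 1 library left out ran from -0.061 without BF10 3 to 1.31 without BF10 6.

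Whether the replicate numbers pair the tumors cannot be told from these values. Same-numbered libraries deviated from their group means with correlations from -0.66 to 0.42. Those of the same library set stood at 0.35 and 0.42, and those of different sets at -0.66 to -0.26. A pairing could thus not be told apart from the set of the library. With the replicate block, 0 members were called in each of the 7 contrasts, in a fit that leaves 2 residual degrees of freedom. Low levels limit the smallest members: Fcnb and Itgb2l were under 1 TPM outside BF10 3 and were not tested.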

Other observations

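Mast cell markers, a cell type that also makes histamine through Hdc, were highest in an aCSF1R tumor. The 8 mast cell and basophil markers summed to 60.4, 93.9 and 232 TPM in aCSF1R tumors 4, 6 and 8, to 20.5 to 33.1 TPM in control tumors, to 28.4 to 47.9 TPM in IL-10-Fc tumors and to 29.1 to 60.5 TPM in BF10 tumors. Hdc was 10.4, 7.09 and 3.47 TPM in the same aCSF1R tumors, so the tumor with the highest mast cell sum had the lowest Hdc of the 3.

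T cell markers summed to 8.93 to 40.6 TPM over the 12 tumors, epithelial markers to 669 to 2319 TPM and keratinocyte markers to 15.3 to 97.6 TPM. B cell markers were at most 5.51 TPM in 11 tumors and 66.4 TPM in control 7, and skeletal muscle markers were at most 13.5 TPM in 11 tumors and 43.7 TPM in IL-10-Fc 7. BF10 3 was not the highest tumor in the epithelial, keratinocyte, B cell or muscle sums. Its keratinocyte sum of 72.8 TPM ranked 2 of 12, and 5 of the 7 keratinocyte markers were highest there. In the T cell sum BF10 3 was highest, at 1.10 times the next tumor.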
